A study of Mus musculus with 2 samples.

Results

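*Krt5*, *Krt14* and *Krt15* are the 3 keratin genes of basal squamous cells described here, out of the 19550 genes counted in the series. They were chosen by name, and the squamous labels that place them come from the authors' clustering of the same cells, which used these genes, so their presence in squamous cells is not an independent finding. The data are unique molecular identifiers (UMIs, 1 per captured transcript) of 7808 single cells from esophagus, gastroesophageal squamocolumnar junction (GE-SCJ) and stomach of wild-type C57BL/6 mice at embryonic days 15 and 19 (E15, E19), in pups of 2 days and in adults of 8 weeks. The labels give no treatment. Mouse numbers were 6 (E15), 2 (E19), 2 (pup) and 3 (adult) by the series' design text, but 3 mice per pool by the methods. Cells of a region and stage shared 1 tag that does not tell mice apart, which makes each of the 11 groups 1 pooled sample without replicates, no adult stomach group was analysed here, and no difference was tested. The squamous class joins 690 cells of the first and 40 cells of the second squamous label, 730 in all. There were 64, 123, 85 and 232 squamous cells in the esophagus at E15, E19, pup and adult, 47, 34, 46 and 87 in the GE-SCJ, and 1, 4 and 7 in the stomach at E15, E19 and pup.

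Keratins are the intermediate filaments of epithelia and assemble from pairs of a type II and a type I protein. Krt5 is the type II partner and Krt14 the type I partner of the basal layer of stratified squamous epithelium, the layer that divides and is anchored to the basement membrane, and Krt15 is a further type I keratin of that layer. When a basal cell moves up, it replaces these by the suprabasal keratins, which in the esophagus are Krt4 and Krt13 and in keratinizing epithelium Krt1 and Krt10.

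On GRCm38 (GENCODE M21), all 3 genes lie on the minus strand. *Krt5* (ENSMUSG00000061527.7) has 9 exons at chr15:101707070-101712898, in the type II cluster. *Krt14* (ENSMUSG00000045545.8) has 8 exons at chr11:100203162-100207548, and *Krt15* (ENSMUSG00000054146.8) 8 exons at chr11:100131758-100135928, both in the type I cluster. Because the library reads transcripts from their 3′ end, near-identical sequence there decides which counts can be separated. The coding sequence of *Krt14* is identical to that of *Krt16* at 86.2% and to that of *Krt17* at 82.9% of aligned bases, but to that of *Krt15* at 71.8%, and *Krt5* and *Krt14* share 59.5%. The stretch of the last 500 transcript bases in which *Krt14* and *Krt17* are most alike is given here for *Krt14* and 3 other type I keratins, counted from the first coding base, with capitals for the bases that differ from *Krt14*. It spans coding bases 1207 to 1286 of *Krt14*, 1096 to 1175 of *Krt17*, 1183 to 1262 of *Krt16* and 1141 to 1220 of *Krt15*.
Krt14: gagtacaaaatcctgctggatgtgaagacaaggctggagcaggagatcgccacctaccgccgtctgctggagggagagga
Krt17: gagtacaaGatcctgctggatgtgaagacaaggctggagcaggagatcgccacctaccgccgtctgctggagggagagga
Krt16: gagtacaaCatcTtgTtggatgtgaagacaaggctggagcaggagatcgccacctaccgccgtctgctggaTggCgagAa
Krt15: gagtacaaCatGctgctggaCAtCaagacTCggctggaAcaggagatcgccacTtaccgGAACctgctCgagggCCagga

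Within these 80 bases *Krt17* differs from *Krt14* at 1 base, *Krt16* at 6 and *Krt15* at 16. The run of 71 bases common to *Krt14* and *Krt17* ends 319 bases before the end of the *Krt14* transcript and 312 bases before the end of that of *Krt17*. In the last 500 transcript bases the longest run that *Krt14* has in common with *Krt16* is 55 bases (134 over the whole coding sequence) and with *Krt15* 17, and *Krt5* has no run above 16 bases in common with any of the keratins compared. Reads that lie wholly inside such runs cannot be placed on 1 gene, so *Krt14*, *Krt16* and *Krt17* are uncertain to that extent. A read longer than the run reaches bases that differ, and read length was not set against these runs. *Krt17* is a keratin of embryonic and stressed epithelium, and how far such reads bear on its counts was not tested. In esophageal squamous cells at E15, E19, pup and adult its level was 437, 372, 110 and 16.5 CPM (counts per 1000000, from the summed UMIs of the gene and of the group), lowest in the adult, where *Krt14* was highest. In GE-SCJ squamous cells the *Krt17* level was 104, 16.7, 264 and 368 CPM, highest in the adult, as for *Krt14*. The list of 10 squamous markers includes the 3 keratins themselves, so it is no independent check on them. All 10 of 10 were detected in every esophageal and GE-SCJ squamous group, *Krt14* with 5 UMIs in the E15 GE-SCJ. Their summed level over these groups was 7269 to 61455 CPM. Of the other lists, immune markers summed to 3.05 to 82.9 CPM there, endothelial to 3.86 to 21.0, neural to 0 to 8.85, mesothelial to 3.22 to 424, smooth muscle to 91.1 to 965, fibroblast to 262 to 1872 and columnar to 1109 to 3840. Their part in the results was not tested.

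The keratins followed different courses between E15 and the adult. *Krt15* was highest before birth in both regions, and *Krt14* was highest in the adult in both. *Krt5* was present throughout and was highest in the adult in the esophagus. In the GE-SCJ *Krt5* was higher after birth than before, with overlapping intervals in pup and adult. Levels are given with exact 95% Poisson intervals, shares of cells with exact 95% Clopper-Pearson intervals and log2 ratios with an exact 95% interval conditional on the summed counts (1 UMI added to each sum), and all of these cover counting error only, not the spread between mice. The part of its transcripts that is captured was not measured for each gene, so levels are compared between groups and not between genes. Shares of a keratin among several are likewise read across groups.

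*Krt5* in esophageal squamous cells was at 912 CPM (853 to 974) at E15, 1095 at E19, 435 (394 to 478) in pups and 1312 (1272 to 1352) in adults. The pup was the low point, and its interval overlapped none of the others. In GE-SCJ squamous cells *Krt5* was at 599 CPM (550 to 652) at E15, 663 (596 to 735) at E19, 1681 (1584 to 1782) in pups and 1581 (1519 to 1645) in adults. Here both prenatal groups were low and both postnatal groups high, and of the 1126 pup UMIs 253 lay in 1 cell, without which the pup was at 1396 CPM. From E19 to pup the log2 ratio was -1.33 (-1.49 to -1.18) in the esophagus and 1.34 (1.17 to 1.52) in the GE-SCJ, opposite in sign. The esophageal pup group holds 29 cells of the second squamous label, in which *Krt5* was at 12.4 CPM and *Krt14* at 2.49 CPM but *Krt15* at 1449 CPM. In the 56 pup cells of the first label *Krt5* was at 732 CPM, *Krt14* at 406 and *Krt15* at 2887, and with the first label alone the *Krt5* ratio from E19 to pup was -0.62.

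*Krt14*, the partner of Krt5, was at 116 CPM (95.7 to 139) in the esophagus at E15, 166 (147 to 187) at E19, 240 (210 to 272) in pups and 642 (614 to 670) in adults, each stage above the one before. At E15, 39 of its 114 UMIs lay in 1 cell, and the level without that cell was 77.5 CPM. Without cells in which markers of other classes outnumbered squamous markers, the log2 ratio from E15 to E19 was 0.01 in place of 0.51, and -0.52 with the 3 keratins not counted as markers, so that step depends on which cells are kept. In the GE-SCJ *Krt14* was at 5.53 CPM (1.80 to 12.9) at E15, which is 5 UMIs, 147 (116 to 183) at E19, 670 (610 to 735) in pups and 1477 (1417 to 1539) in adults. The E19 value rested on 1 cell that held 73 of the 79 UMIs, and without it the level was 11.5 CPM (4.24 to 25.1). Immune, endothelial and neural cells of the same groups, which should lack the gene and are used here as reference cells for free RNA, had 6.58 CPM (2.65 to 13.6) at E15 and 3.93 CPM (1.58 to 8.10) at E19. GE-SCJ squamous cells were thus at reference level for *Krt14* at E15, and their interval overlapped that of reference cells at E19 without the 1 cell. From E15 to adult the log2 ratio was 2.46 (2.18 to 2.74) in the esophagus and 7.80 (6.67 to 9.25) in the GE-SCJ, the latter a ratio to an E15 value at reference level.

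*Krt15* ran the other way. In the esophagus it was at 4247 CPM at E15, 5656 at E19, 2293 in pups and 1578 in adults, and in the GE-SCJ at 2310, 2925, 1309 and 985 CPM. E19 was the highest and the adult the lowest group in both regions, with no overlap of intervals. From E15 to adult the log2 ratio was -1.43 (-1.49 to -1.37) in the esophagus and -1.23 (-1.33 to -1.13) in the GE-SCJ. The lower adult level relative to the pup, -0.54 in the esophagus and -0.41 in the GE-SCJ, was 0.04 and 0.22 when each cell counted equally, so that last step depends on how cells are weighted. The GE-SCJ pup level also rests in part on 6 of its 46 cells, which had mostly prenatal neighbours in expression. They held 332 of its 877 *Krt15* UMIs.

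**Figure D1:**
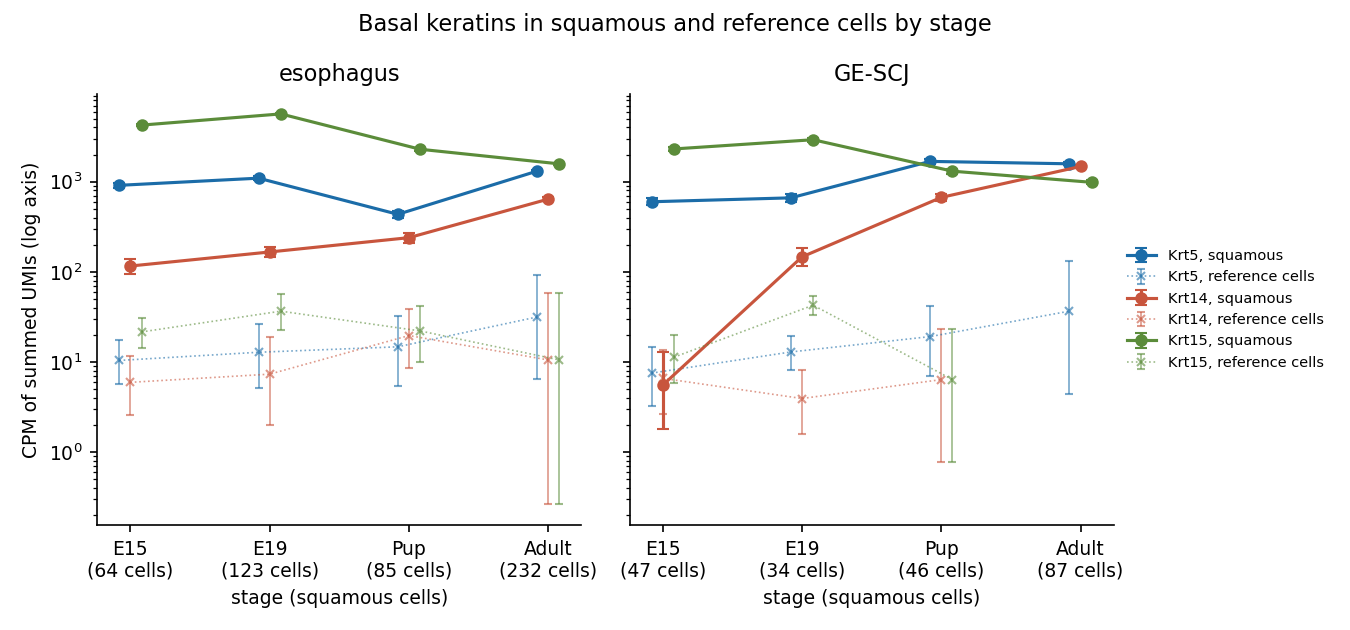
CPM of summed UMIs (log axis) by stage in squamous cells (circles, solid lines) and in immune, endothelial and neural reference cells (crosses, dotted lines), with exact 95% Poisson intervals as bars. Reference groups without a UMI of the gene are not drawn. In the esophagus *Krt14* stands above its reference cells at every stage, whereas in the GE-SCJ its E15 circle lies on them at 5.53 CPM, its E19 value of 147 CPM rests on 1 cell, and the adult is at 1477 CPM.

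For comparison, all genes with at least 50 UMIs over both groups were set beside the keratins. In the esophagus, 10.3% of 7881 genes were at least 2-fold higher and 21.9% at least 2-fold lower in adult than in E15 squamous cells, and *Krt14* was among the former and *Krt15* among the latter. *Krt5*, with a log2 ratio of 0.52 (0.42 to 0.63), was in neither. In the GE-SCJ, 10.2% of 5754 genes were higher and 21.2% lower, with *Krt5* (1.40) and *Krt14* among the higher and *Krt15* among the lower. The median log2 ratio over all genes was -0.44 in the esophagus and -0.39 in the GE-SCJ, and relative to it *Krt15* was at -0.99 and -0.84. Between E19 and E15 none of the 3 passed 2-fold in the esophagus (3.87% of genes higher, 5.47% lower), with log2 ratios of 0.26 for *Krt5*, 0.51 for *Krt14* and 0.41 for *Krt15*. In the GE-SCJ that step (6.04% higher, 7.57% lower) gave 0.15 (-0.05 to 0.34) for *Krt5*, 0.34 for *Krt15* and 4.48 for *Krt14*, the last through the 1 cell named above. From E19 to pup, *Krt5* and *Krt15* were both past 2-fold lower in the esophagus (7.8% of genes higher, 20% lower), *Krt15* at -1.30, while *Krt14* was at 0.53. That step of *Krt14* depends on which cells are kept, since it was past 2-fold at 1.25 with the first squamous label alone and at 1.04 without cells of mixed markers, the 3 keratins not counted as markers. In the GE-SCJ (4.51% higher, 8.89% lower) *Krt5* and *Krt14* were past 2-fold higher, at 1.34 and 2.18, and *Krt15* lower at -1.16. That *Krt5* step was below 2-fold with the first label alone and the top pup cell left out. The levels were then 1429 CPM in the pup and 757 CPM at E19. Without the 1 E19 cell the *Krt14* ratio was 5.64 (4.59 to 6.96), from an E19 level close to that of reference cells. From pup to adult, *Krt5* (1.59) and *Krt14* (1.42) were past 2-fold higher in the esophagus, where 21.2% of genes were higher and 11.1% lower. In the GE-SCJ *Krt14* (1.14) alone was, *Krt5* being at -0.09 (-0.19 to 0.01), beside 11.0% of genes higher and 8.32% lower. With the first squamous label alone, the esophageal pup-to-adult ratios were 0.84 for *Krt5* and 0.65 for *Krt14*, below 2-fold.

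The order of onset was read at 10% and 50% of the highest stage. *Krt15* had 75.1% of its highest level at E15 in the esophagus and 79.0% in the GE-SCJ, and *Krt5* had 69.5% and 35.7%. *Krt14* in the esophagus reached 18.1% of its adult level at E15, 25.9% at E19 and 37.3% in pups. In the GE-SCJ it reached 0.374, 9.93 and 45.4%. Thus *Krt15* was past 50% at E15 in both regions, *Krt5* at E15 in the esophagus and in the pup in the GE-SCJ, and *Krt14* in the adult in both. With the first squamous label alone *Krt14* reached 63.3% in the esophageal pup, so its 50% point there lies in the pup or the adult depending on the label. *Krt14* was past 10% at E15 in the esophagus and in the pup in the GE-SCJ. With the first label alone it reached 11.1% at E19 in the GE-SCJ, where 73 of its 77 UMIs lay in 1 cell. The lower limit of squamous cells first lay above the upper limit of reference cells at E15 for *Krt5* and *Krt15* in both regions and for *Krt14* in the esophagus, and at E19 for *Krt14* in the GE-SCJ, again through the 1 cell.

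The regions differed in the same direction for *Krt15* at every stage. GE-SCJ over esophagus, its log2 ratio was -0.88 at E15, -0.95 at E19, -0.81 in pups and -0.68 in adults. None was past 2-fold with both squamous labels, but with the first label alone the pup ratio was -1.11 (-1.23 to -0.99), past it. *Krt5* was lower in the GE-SCJ before birth, by -0.60 at E15 and -0.72 at E19. After birth it was higher there, by 1.95 in the pup and 0.27 in the adult. The *Krt5* pup ratio was 1.23 (1.07 to 1.39) with the first label alone, smaller but still past 2-fold. A single GE-SCJ pup cell held 253 of the 1126 *Krt5* UMIs of its group. Without that cell the first-label GE-SCJ level was 1429 CPM, against 732 CPM in the first-label esophagus, which is below 2-fold. *Krt14* was lower in the GE-SCJ at E15, by -4.14 (-5.62 to -2.97), where 1.84% of genes were at least 2-fold higher and 3.55% lower. At E19 its ratio was -0.17 (-0.54 to 0.19), beside 4.63% of genes higher and 5.11% lower, but that value rests on the 1 GE-SCJ cell named above, and without it the ratio was -3.63 (-4.96 to -2.57). In the pup its ratio was 1.48, where 11.7% of genes were higher and 12.0% lower, but 0.75 (0.52 to 0.98), below 2-fold, with the first label alone. The second label was carried by 29 of 85 esophageal and 2 of 46 GE-SCJ pup cells. It was higher in the GE-SCJ in the adult, at 1.20 (1.12 to 1.29), where 1.38% were higher and 4.06% lower and *Krt14* ranked 75 from the top of 7682 genes. In the stomach, with 12 squamous cells in all, *Krt14* had 0 UMIs in the 1 cell of E15 and the 4 cells of E19 and 543 CPM (396 to 727) in the 7 cells of the pup, where *Krt5* was at 1207 and *Krt15* at 1943 CPM. There 36 of the 45 *Krt14* UMIs and 61 of the 100 *Krt5* UMIs lay in 1 cell each, and without the top cell of each gene the levels were 136 CPM (62.1 to 258) for *Krt14* and 589 (419 to 805) for *Krt5*.

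As a share of the UMIs of the 3 genes together, *Krt14* made up 2.20, 2.40, 8.07 and 18.2% of the esophageal groups at E15, E19, pup and adult. The GE-SCJ shares were 0.190, 3.93, 18.3 and 36.5%, and the one at E19 was 0.320% (0.117 to 0.694) without that 1 cell. *Krt15* went from 80.5, 81.8 and 77.3% to 44.7% in the adult esophagus, and from 79.2 and 78.3% before birth to 35.8% in the pup and 24.4% in the adult GE-SCJ. As a share of the 3 genes, the drop of *Krt15* thus lay mainly between E19 and pup in the GE-SCJ and between pup and adult in the esophagus. The *Krt15* level itself fell past 2-fold from E19 to pup in both, at -1.30 in the esophagus and -1.16 in the GE-SCJ. In the esophagus *Krt5* fell alike at that step with both labels joined, at -1.33, which kept the share of *Krt15* level. With the first label alone *Krt5* went from 1130 to 732 CPM there and *Krt15* from 5788 to 2887 CPM, so *Krt5* fell less than *Krt15*. *Krt5* held 17.3, 15.8, 14.7 and 37.2% of the esophageal and 20.6, 17.7, 45.9 and 39.1% of the GE-SCJ groups.

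At the level of cells, *Krt15* was detected (at least 1 UMI) in 95.3, 100, 92.9 and 87.1% of esophageal squamous cells at E15, E19, pup and adult, and in 100, 97.1, 65.2 and 73.6% of those of the GE-SCJ. *Krt5* was detected in 95.3, 93.5, 65.9 and 77.2% of esophageal cells and in 87.2, 58.8, 84.8 and 77.0% of GE-SCJ cells. The esophageal pup share of *Krt5* was 94.6% with the first squamous label alone. The GE-SCJ share was lowest at E19 (40.7 to 75.4), where the *Krt5* level was not lower than at E15 and 4 cells held 50% of its UMIs. *Krt14* was detected in 37.5% (25.7 to 50.5), 48.0, 56.5 and 58.2% (51.6 to 64.6) of esophageal cells. With the first squamous label alone its esophageal share was 49.2% at E19 and 83.9% (71.7 to 92.4) in the pup, above the adult. In the GE-SCJ it was in 8.51% (2.37 to 20.4), 17.6, 67.4 and 60.9% (49.9 to 71.2). With each cell thinned to 5000 UMIs and shallower cells left out, the *Krt14* shares were 22.9, 37.5, 50.5 and 54.2% for the esophagus and 1.26, 7.82, 65.0 and 49.1% for the GE-SCJ. Thinning left out 6, 20, 10 and 61 esophageal cells and 2, 4, 4 and 20 GE-SCJ cells. Over all groups, 80.3% of squamous cells had *Krt5*, 49.9% *Krt14* and 88.9% *Krt15* at a median depth of 11996.5 UMIs, against 9.68, 5.48 and 11.7% of 930 reference cells at a median of 8242.5. At E15 in the GE-SCJ, 8.33% (3.42 to 16.4) of reference cells had *Krt14*, so the squamous share there is background.

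In the esophagus before birth, all 24 *Krt14*-positive cells at E15 and all 59 at E19 also held *Krt5* and *Krt15*. Most squamous cells there held both, 59 of 64 at E15 and 115 of 123 at E19, so this overlap is near the share over all cells. Cells with *Krt5* and *Krt15* but no *Krt14* made up 54.7 and 45.5% before birth and 14.1 and 16.4% in pup and adult, while cells with all 3 went from 37.5 and 48.0% to 50.6 and 56.5%. In the GE-SCJ cells with *Krt5* and *Krt15* alone went from 78.7 and 47.1% to 15.2 and 16.1%, and cells with all 3 from 8.51 and 11.8% to 45.7 and 41.4%. A further combination was found in the GE-SCJ after birth, *Krt5* and *Krt14* without *Krt15*, in 21.7% of pup and 14.9% of adult cells, against 1.18 and 0.431% in the esophagus. Cells with *Krt15* alone were most common in the pup esophagus, at 24.7%, and in the E19 GE-SCJ, at 32.4%. Of the 29 second-label cells of the pup esophagus, 25 held *Krt15*, 3 *Krt5* and 1 *Krt14*. Of its 56 first-label cells, 54 held *Krt15*, 53 *Krt5* and 47 *Krt14*. The shares of these combinations in the pup esophagus thus depend on the label. In the adult, 8.62% of esophageal and 6.90% of GE-SCJ squamous cells held none of the 3. Median depth over these groups was 9198 to 15924 UMIs, and a keratin can be missed in a shallow cell.

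**Figure D2:**
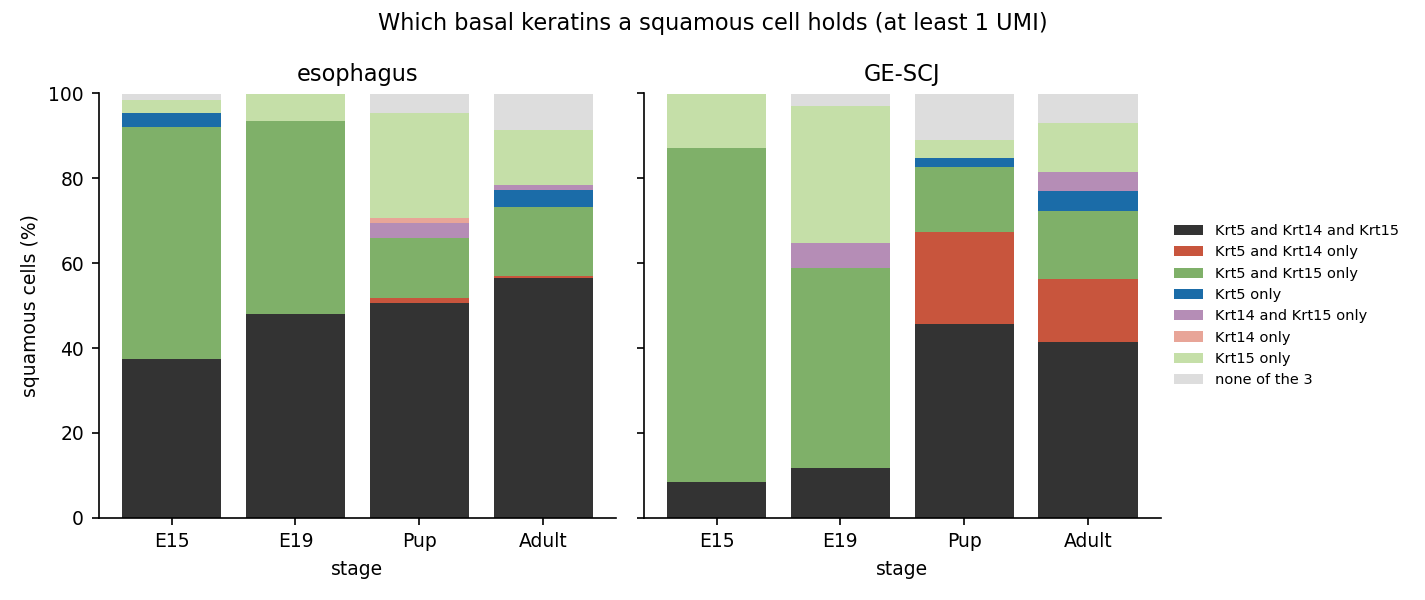
Shares of squamous cells (%) by which of the 3 keratins they hold at 1 UMI or more, stacked by stage. In the esophagus the cells with *Krt5* and *Krt15* alone give way to cells with all 3, and in the GE-SCJ a class with *Krt5* and *Krt14* but no *Krt15* appears in 21.7% of pup and 14.9% of adult cells. The esophageal pup bar includes 29 cells of the second squamous label, of which 25 held *Krt15* and 3 *Krt5*.

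Across the 232 adult esophageal squamous cells, the levels per 10000 UMIs of a cell moved together, with a Spearman correlation of 0.734 for *Krt5* and *Krt14*, 0.717 for *Krt5* and *Krt15* and 0.741 for *Krt14* and *Krt15*. Across the 87 adult GE-SCJ cells the value was 0.766 for *Krt5* and *Krt14*, 0.334 for *Krt5* and *Krt15* and 0.075 for *Krt14* and *Krt15*. These are descriptions over cells of 1 pooled library that differ in depth. Prenatally the *Krt5* and *Krt14* value was 0.312 at E15 and 0.491 at E19 in the esophagus, and that of *Krt14* and *Krt15* 0.030 and -0.258.

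Adult cells were then called high for a gene at 10 or more of its UMIs per 10000. Within a factor of 2 of this limit, from 5 to 20, lay 56 of 232 esophageal and 7 of 87 GE-SCJ cells for *Krt14*, and 42 and 26 for *Krt15*, so the classes are ranges and not types. In the esophagus 95 cells (40.9%) were high for *Krt14* and *Krt15*, 49 (21.1%) for *Krt15* alone, 3 (1.29%, 0.267 to 3.73) for *Krt14* alone and 85 (36.6%) for neither. In the GE-SCJ 21 (24.1%) were high for both, 12 (13.8%) for *Krt15* alone, 21 (24.1%, 15.6 to 34.5) for *Krt14* alone and 33 (37.9%) for neither. The 21 GE-SCJ cells with *Krt14* and little *Krt15* had *Krt5* at 4134 CPM, against 4501 in the 21 cells high for both. *Trp63*, the master transcription factor of squamous epithelium, was at 463 CPM in them and 582 in the cells high for both, and *Col17a1*, a hemidesmosome collagen, at 236 against 438 CPM. The proliferation gene *Mki67* was at 105 against 404 CPM. In the 21 cells high for both, its 93 UMIs lay in 11 cells, with 32 in 1 cell. In the 21 cells with little *Krt15*, its 25 UMIs lay in 4 cells, with 11 in 1 cell. Other keratins were picked after their values were seen. Higher in these cells were *Krt17* (1615 against 269 CPM), *Krt16* (850 against 65.1), *Krt10* (1304 against 95.5) and *Krt7* (273 against 91.2). *Krt13* was lower (1228 against 1715), but 270 of its 395 UMIs in the cells high for both lay in 1 cell. *Krt19* (16.8 against 47.7) and *Krt8* (42.1 against 65.1) had overlapping intervals. They rested on 4 against 11 UMIs for *Krt19* and 10 against 15 for *Krt8*. The cell with the most held 93 of the 384 *Krt17* UMIs, 93 of the 202 *Krt16* UMIs and 107 of the 310 *Krt10* UMIs of these 21 cells. *Krt16* and *Krt17* are the closest to *Krt14* of the keratins compared, and reads wholly within their common runs cannot be placed on 1 gene. In these 21 GE-SCJ cells *Krt14* was at 5867 CPM. In the 95 esophageal cells high for both, *Krt14* was at 2127 CPM, *Krt17* at 48.3 and *Krt16* at 3.45. How far such reads bear on these counts was not tested.

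**Figure D3:**
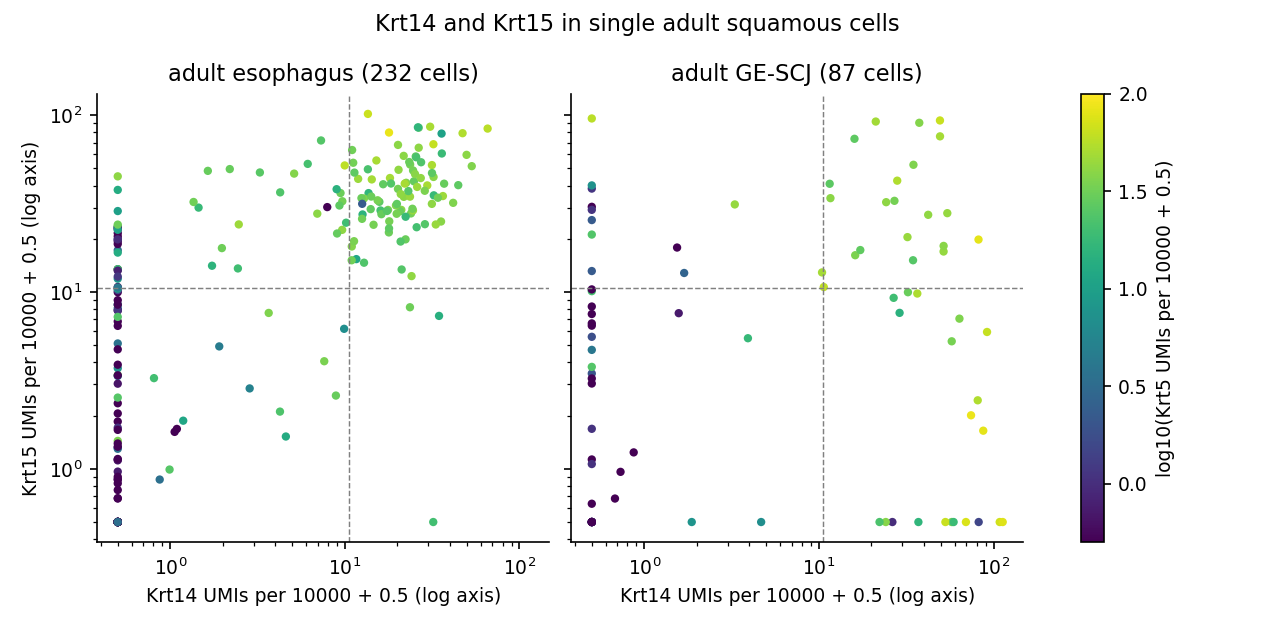
Each point is 1 adult squamous cell, with UMIs of *Krt14* (x) and *Krt15* (y) per 10000 UMIs plus 0.5 on log axes, colored by *Krt5*; dashed lines mark the limit of 10. In the esophagus 3 of 232 cells are high for *Krt14* and low for *Krt15* (lower right), and in the GE-SCJ 21 of 87 do.

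In both adult regions most basal and cycling genes of the lists were higher, and most suprabasal genes lower, in cells high for *Krt14*. Genes here are those of fixed lists with at least 50 UMIs over both sets of cells. In the esophagus 16.2% of 6439 genes were at least 2-fold higher and 13.3% lower in the 98 *Krt14*-high than in the 134 *Krt14*-low cells, with a median log2 ratio of 0.26. Of the basal adhesion and identity genes 12 of 14 were higher and 0 lower (median 2.08), with *Trp63* at 1.87, *Col17a1* at 2.94, the hemidesmosome linker *Dst* at 2.33 and the homeobox gene *Pitx1* at -0.43. Of the cycling genes 9 of 9 were higher (median 2.20), among them the microtubule regulator *Stmn1* at 2.65, the topoisomerase *Top2a* at 2.36 and *Mki67* at 2.01. Of the suprabasal and cornified genes 0 of 17 were higher and 15 lower (median -5.60), with *Krt13* at -4.17, its partner *Krt4* at -5.60 and the differentiation gene *Krtdap* at -8.27. Of the desmosome plaque genes 7 of 8 were lower, with *Dsp* at -2.17, *Jup* at -1.76 and *Pkp1* at -1.38, and of 4 simple epithelial keratins 1 was lower, *Krt8* being at -0.04.

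In the GE-SCJ 9.87% of 3637 genes were higher and 14.1% lower in the 42 *Krt14*-high than in the 45 *Krt14*-low cells (median 0.03). Basal genes were higher in 7 of 9 (median 2.51), with *Trp63* at 2.04, *Col17a1* at 4.19 and *Dst* at 3.52, and cycling genes in 7 of 7 (median 4.62). Suprabasal genes were lower in 17 of 19 (median -3.18), with *Krt13* at -4.08, *Krt4* at -5.22 and *Krtdap* at -2.90. The 1 suprabasal list gene higher in these cells was *Krt16*, at 2.96, named after its value was seen. Of its 217 UMIs in the *Krt14*-high cells, 202 lay in 6 of the 21 cells low for *Krt15*, and 93 in 1 cell. Reads that lie wholly in the runs it has in common with *Krt14* cannot be placed on 1 gene. *Krt14*-high cells were shallower than *Krt14*-low cells, with a median of 8078.5 against 11415.5 UMIs in the esophagus and 9456 against 22959 in the GE-SCJ.

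The split by *Krt5* gave a like picture. Between 142 *Krt5*-high and 90 *Krt5*-low cells of the esophagus (22.4% of genes higher, 13.5% lower), *Trp63* had a log2 ratio of 2.41, *Col17a1* of 4.85, *Krt13* of -3.56 and *Mki67* of 6.33. In the GE-SCJ, with 47 and 40 cells (10.9% higher, 13.1% lower), these ratios were 2.17, 6.28, -3.53 and 5.44. With *Krt15* as the measure, between 144 *Krt15*-high and 88 *Krt15*-low esophageal cells (16.5% higher, 9.49% lower), *Trp63* had a ratio of 2.15, *Col17a1* of 3.27, *Krt13* of -1.91 and *Mki67* of 2.77. In the GE-SCJ, with 33 and 54 cells (5.88% higher, 5.77% lower), they were 0.90, 1.82, -0.79 and 2.90. Cells high for *Krt15* alone held *Krt13* at 23731 CPM in the esophagus and 21760 in the GE-SCJ, against 2076 and 1715 CPM in the cells high for both *Krt14* and *Krt15*. These sums rest on few cells. In the cells high for *Krt15* alone, 50% of the *Krt13* UMIs lay in 4 of 49 esophageal and 2 of 12 GE-SCJ cells. In the cells high for both, 50% lay in 11 of 95 and 1 of 21.

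Among all keratins *Krt5* and *Krt15* held a smaller share in the adult than at E15, and the suprabasal pair a larger one. Keratin genes together took 1.07, 2.59, 1.36 and 5.06% of the UMIs of esophageal squamous cells at E15, E19, pup and adult, and 0.939, 2.07, 1.23 and 3.85% in the GE-SCJ. Of these keratin UMIs, *Krt15* made up 39.8, 21.8, 16.8 and 3.12% of the esophageal and 24.6, 14.1, 10.7 and 2.56% of the GE-SCJ groups. *Krt13* went from 16.6 to 54.3% and *Krt4* from 11.2 to 37.0% between E15 and adult in the esophagus, and from 25.2 to 46.4% and from 5.43 to 25.9% in the GE-SCJ. *Krt5* made up 8.54% at E15 and 2.59% in the adult esophagus, and 6.38, 3.20, 13.7 and 4.11% over the 4 stages of the GE-SCJ. *Krt14* made up 5.46% of the pup GE-SCJ and 3.84% of the adult, against 1.76 and 1.27% in the esophagus. Simple epithelial keratins were present before birth and in the pup, where *Krt19* reached 13.5% (E15 GE-SCJ), *Krt8* 11.6% (E15 GE-SCJ), *Krt7* 17.1% (pup esophagus) and *Krt23* 6.65% (pup esophagus). The keratinizing pair was above 5% in the postnatal GE-SCJ, with *Krt10* at 6.40 and 5.87% and *Krt1* at 5.33 and 5.11% in pup and adult.

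**Figure D4:**
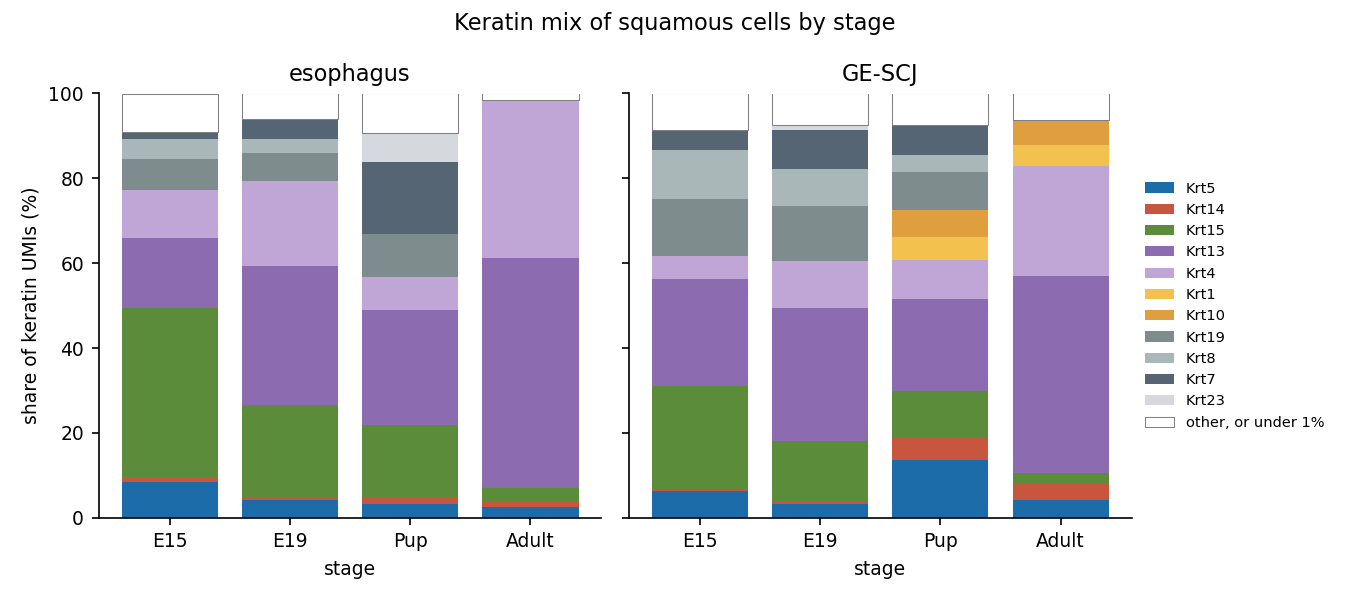
Share of all keratin UMIs (%) held by each keratin in squamous cells of each stage, with keratins under 1% or not listed in white. The green and blue blocks of *Krt15* and *Krt5* shrink from 39.8 and 8.54% at E15 to 3.12 and 2.59% in the adult esophagus as the purple blocks of *Krt13* and *Krt4* grow to 54.3 and 37.0%.

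The other lists gave the following counts between E15 and adult. Suprabasal and cornified genes were at least 2-fold higher in the adult in 14 of 18 genes in the esophagus (median 5.81) and 18 of 19 in the GE-SCJ (median 5.77), and desmosome plaque genes in 7 of 8 (1.82) and 8 of 8 (1.81). Basal adhesion and identity genes were higher in 1 and lower in 4 of 16 in the esophagus (median -0.57), and higher in 0 and lower in 4 of 11 in the GE-SCJ (median -0.80), beside the 10.3 and 10.2% of all genes higher and 21.9 and 21.2% lower. *Krt14* had a ratio of 2.46 in the esophagus. Simple epithelial keratins were lower in 4 of 5 (median -2.49) and 3 of 6 (-1.90), with *Krt23* higher in both. Cycling genes were lower in 2 of 9 (median -0.55), which is near the share over all genes in the esophagus, and in 3 of 7 (-0.79). From E19 to pup in the GE-SCJ, the interval in which *Krt5* and *Krt14* passed 2-fold, 5 of 13 basal genes were also at least 2-fold higher and 0 lower (median 0.88), namely *Trp63*, *Col17a1*, *Dst*, *Lamb3* and *Igfbp3*. Of the cycling genes 5 of 7 were higher (median 2.20), beside 4.51% of all genes higher and 8.89% lower at this step. In the esophagus over that interval 2 of 16 basal genes were higher and 2 lower (median 0.27), and 3 of 8 cycling genes were lower (median -0.71), beside 7.8% of all genes higher and 20% lower.

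Outside squamous epithelium the keratins were at low levels. *Krt5*, *Krt14* and *Krt15* were at 8.51, 5.18 and 22.2 CPM in 1540 columnar cells, 10.6, 5.92 and 19.7 in 3442 fibroblasts, 9.49, 5.99 and 20.6 in 1027 smooth muscle cells and 8.98, 6.74 and 8.42 in 157 endothelial cells. Immune cells had 30.02, 5.05 and 24.4 CPM and neural cells 31.2, 24.3 and 24.3, in part from single cells, since 72 *Krt5* and 60 *Krt14* UMIs of the neural class lay in 1 cell of the E15 stomach. A second stromal label of 139 cells was higher for 2 of the 3. In it fibroblast markers summed to 10248 CPM, columnar to 1997, mesothelial to 1841 and squamous, with the 3 keratins among them, to 677. It had *Krt15* at 124 CPM (106 to 144) in 51.8% of cells and *Krt14* at 69.3 CPM (55.9 to 84.9) in 20.1%, while *Krt5* was at 18.6 CPM (12.0 to 27.5) in 7.91%. At E15, E19 and pup *Krt15* was at 54.1, 98.8 and 225 CPM and *Krt14* at 15.9, 66.4 and 119 CPM in these cells. Of the 5, 43 and 45 *Krt14* UMIs, 3, 16 and 21 lay in 1 cell, and without it the levels were 6.53, 42.7 and 65.3 CPM. With all stages pooled, the *Krt15* and *Krt14* intervals lay above those of fibroblasts, at a similar median depth of 8353 against 8940 UMIs. At E15 alone the *Krt14* interval, 5.17 to 37.2 CPM, overlapped that of fibroblasts and smooth muscle cells together, 4.89 to 7.37 CPM.

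**Figure D5:**
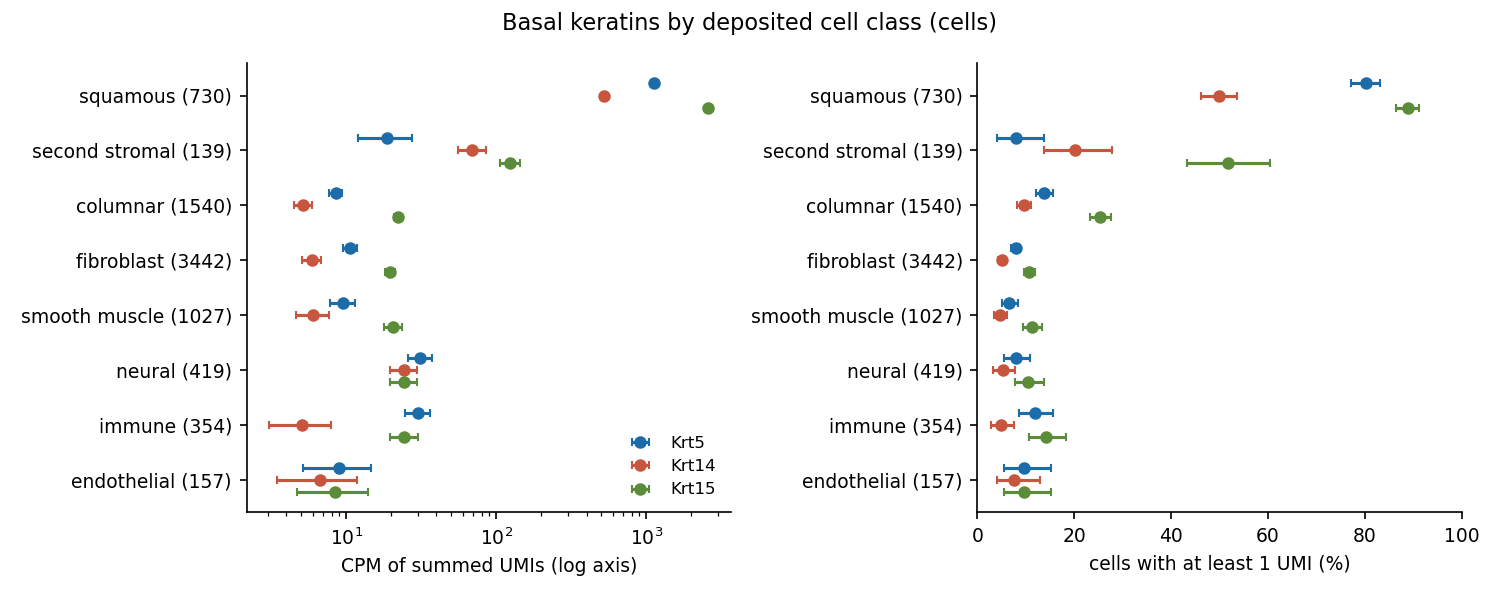
CPM of summed UMIs (left, log axis, exact 95% Poisson intervals) and cells with at least 1 UMI (right, %, exact 95% Clopper-Pearson intervals) by cell class, with the number of cells in parentheses. After the squamous class, the second stromal label is next for *Krt15* (124 CPM, 51.8% of cells) and *Krt14* (69.3 CPM, 20.1%), but not for *Krt5* (18.6 CPM, 7.91%).

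Likeness to each keratin was measured as Pearson's r of log2(CPM + 10) over 54 groups of class, region and stage with at least 20 cells, among 11548 genes with at least 500 UMIs. The groups share 1 sequencing pool, and r follows mainly the difference between squamous and other classes. Among the genes most like *Krt5* were *Trim29* (0.945), *Dsg3* (0.944), *Krt13* (0.940) and *Trp63* (0.937). Those most like *Krt14* were *Lgals7* (0.901), *Serpinb5* (0.893), *Barx2* (0.886), *Dsc3* (0.884) and *Cers3* (0.877), and those most like *Krt15* were *Cyp2f2* (0.957), *Krt6a* (0.920), *Ppl* (0.919), *Grhl3* (0.912) and *Dsg3* (0.909). Over the 8 squamous groups alone and 2913 genes, *Krt5* and *Krt14* had an r of 0.68, *Krt5* and *Krt15* of -0.43 and *Krt14* and *Krt15* of -0.57. There *Bcl7c* (0.920), *Fnta*, *Gsta1*, *Mpzl2* and *Eef1g* were most like *Krt5*, and *Sparc* (0.964), *Cldn10*, *Cmas*, *Cnpy2* and *Pdcd10* most like *Krt15*. *Selenoi* (0.963), *Rab24*, *Adh7*, *Xist* and *Tprgl* were most like *Krt14*. *Xist*, the RNA of the inactive X chromosome of female cells, had an r of 0.910 with *Krt14* over these groups. Its squamous level at E15, E19, pup and adult was 225, 755, 975 and 2487 CPM for the esophagus and 82.9, 859, 1173 and 1676 for the GE-SCJ, so the sex of the pooled mice and the stage cannot be told apart. The paper's methods name female wild-type mice but do not give the sex of the embryos and pups.

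A few postnatal squamous cells had mostly prenatal cells among their 15 nearest neighbours in expression, found without the 3 keratins. They were 1 of 85 in the pup and 2 of 232 in the adult esophagus, and 6 of 46 in the pup and 3 of 87 in the adult GE-SCJ. The 6 pup cells held 147 *Krt5*, 60 *Krt14* and 332 *Krt15* UMIs of the 1126, 449 and 877 of their group, and the 3 adult cells held 14, 6 and 72. Between 143 and 1403 cells and 2302227 and 20070615 UMIs lay in a region and stage, and a cell had a median of 10424.5 UMIs (519 to 79817).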

How the data were processed

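Cells were processed with 10x Genomics 3′ CellPlex chemistry, with 1 tag for each region and stage. The authors made UMI counts with Cell Ranger 6.1.1 multi on the mm10-2020-A reference (GRCm38), filtered cells on detected genes, total UMIs and mitochondrial reads, clustered the cells and deposited raw counts, labels and total UMIs per cell. The authors also deposited each cell's mitochondrial percent, which was at most 19.7%. No further doublets were removed. The 3 genes, the gene lists and the comparisons were chosen with earlier results of these data known.

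UMIs were summed per class, region and stage. A gene was set against all others at a 2-fold difference with at least 50 UMIs over both sums. Depth set the precision given by the intervals. The code was checked on simulated data. The splits by *Krt5* and *Krt15* and the joint classes of *Krt14* and *Krt15*, and values without a top cell or with the first squamous label alone between regions and in the onset, were added after values were seen. Gene lists were basal adhesion and identity, suprabasal and cornified, simple epithelial keratins, desmosome plaque and cycling; named examples are the 3 members with the most UMIs in squamous cells plus *Trp63*, *Col17a1*, *Krt13* and *Krt8*, keratins with at least 5% of keratin UMIs, and the 5 genes most like each keratin, of which 1 is not reported here. Neighbours were searched in 30 components of 2000 variable genes (seed 1). Coding sequences and positions came from GENCODE M21. Versions were Biopython 1.88, matplotlib 3.10.9, scikit-learn 1.9.0, pandas 2.3.3, scipy 1.17.1, numpy 2.4.6 and Python 3.11.15.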

Additional observations from a re-analysis of the deposited data

Results flagged for a closer look

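In squamous cells around birth the *Krt5* steps of the 2 regions had opposite signs. From E19 to pup its log2 ratio was -1.33 in the esophagus and 1.34 in the GE-SCJ, and from pup to adult it was 1.59 in the esophagus and -0.089 (-0.19 to 0.01) in the GE-SCJ. The last interval includes 0, and its sign depends on the processing, being 0.59 with each cell's own CPM averaged and 0.10 without the top 1% of cells. Each region and stage is 1 pooled sample, so the difference between regions was not tested. In the esophagus the first squamous label alone gave -0.62 and 0.84 for these steps.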

How the results depend on the processing

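No paired analysis was possible because each region and stage is 1 pooled sample. None of the adult over E15 ratios changed sign under an alternative, and 59 of the 76 values of these ratios and of the shares of genes past 2-fold stayed within their counting error or within 1.5 times, while 17 moved. With the mean over cells of each cell's own CPM the ratios were 0.98 for *Krt5*, 3.06 for *Krt14* and -0.83 for *Krt15* in the esophagus, and 1.88 for *Krt5* and -0.80 for *Krt15* in the GE-SCJ. Leaving out the top 1% of cells by *Krt14* UMIs gave 2.93 for *Krt14* in the esophagus. Without cells in which markers of another class outnumbered squamous markers, the esophagus gave 0.41 for *Krt5* and -1.52 for *Krt15*, and the GE-SCJ 1.15 and -1.42. With the 3 keratins left out of that count of markers, an alternative added after seeing the data that leaves out 25 of 64 esophageal and 26 of 47 GE-SCJ cells at E15 and 15 of 232 and 4 of 87 in the adult, the esophagus gave 0.31 for *Krt5* and 1.96 for *Krt14*, and the GE-SCJ 1.10 for *Krt5* and -1.41 for *Krt15*. Without keratins in the total, *Krt15* in the esophagus was -1.37. With at least 200 UMIs, 2.75% in place of 5.47% of genes were lower at E19 than at E15 in the esophagus, and 5.54% in place of 8.32% lower in the adult than the pup GE-SCJ. In esophageal *Krt14* from E15 to E19, the ratio of 0.51 was 0.01 without the mixed cells and -0.52 with the keratins also left out of the markers. Of 72 alternative shares of positive cells, 29 moved, mostly lower at fewer UMIs per cell. The cause of these shifts was not tested, apart from thinning, which lowers detection by construction. With 1 pooled sample per group the spread between mice is unknown, and levels of 5 UMIs or fewer cannot be told from free RNA.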
